A study of Homo sapiens with 6 samples.

Results

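The lysosome is the acidic compartment in which cells degrade proteins, glycans, lipids and glycogen. Its soluble hydrolases are sorted to it through the Golgi apparatus, and its membrane carries heavily glycosylated coat proteins, ion channels and exporters of the degraded products. Many of its genes share a promoter element, called CLEAR, that is bound by the transcription factors TFEB and TFE3, which mTORC1 at the lysosomal surface keeps in the cytosol when nutrients are plentiful. The data described here cover 35 genes of this compartment, listed by gene symbol with earlier results of these data known, among the 62710 genes of the deposited tables. All 35 symbols were found. They comprise 7 cathepsins, 8 genes of the membrane and of cholesterol transport, 8 glycosidases, 4 sulfatases and sulfamidase, 4 genes of lipid hydrolysis, the hydrolases TPP1 and PPT1, and the regulators TFEB and TFE3.

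RNA was sequenced from HCT116, an established human colon cancer cell line, in 3 libraries of the negative control (sh-NC) and 3 of the IGF2BP3 knockdown (sh-IGF2BP3). IGF2BP3 is an RNA-binding protein that attaches to mRNAs and affects their stability. Per the study's methods, both groups carried a lentivirus and were selected with puromycin as stable lines, with a scrambled hairpin in sh-NC and 1 hairpin against IGF2BP3 in sh-IGF2BP3, so an effect of the hairpin beyond its target and an effect of IGF2BP3 cannot be told apart here. The labels do not say whether the 3 libraries of a group came from separate cultures, and p-values then measure only the spread between these libraries, which may be technical. The hairpin's target sequence, shown because it defines the treated group, occurs in no annotated transcript of the 35 genes; in GENCODE release 29 it was found in IGF2BP3 and in 1 other gene, AC092447.1.

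sh-IGF2BP3: ggctcagggaagaatttat

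Totals ran from 16146718 to 23576469 counts per library. In both groups libraries 1 and 3 were the least alike, with a chi-square per degree of freedom over all genes of 52.3 in sh-NC and 46.4 in sh-IGF2BP3, against 16.6 to 29.2 for the other pairs. The targeted gene was measured first. IGF2BP3 was at 90.3, 84.1 and 70.3 CPM (counts scaled to a fixed library total and normalised for library composition) in sh-NC libraries 1 to 3, and at 60.2, 52.3 and 55.8 CPM in sh-IGF2BP3 libraries 1 to 3. The means were 81.6 ± 10.2 and 56.1 ± 3.98 CPM (SD, n = 3 each) and the groups did not overlap, which in a two-sided exact permutation test gives p = 0.1, the smallest value that 3 against 3 libraries allow. Of 7 colon epithelial markers, EPCAM, KRT8, KRT18, KRT19, CDH1 and CDX2 were expressed, and VIL1 was at or near 0 in each library. Their sum was 512 to 828 FPKM (fragments scaled by gene length and library total) in sh-NC and 697 to 925 FPKM in sh-IGF2BP3. Macrophages are rich in lysosomes, but the summed level of 7 macrophage and leukocyte markers was 0.550 to 0.913 FPKM in sh-NC and 0.616 to 0.697 FPKM in sh-IGF2BP3, and FCGR3A was at 0 in all 6 libraries. The sums were 3.05 to 6.69 FPKM for 6 fibroblast markers, nearly all of it COL1A1, with COL1A2 and LUM at 0 throughout, and 0.157 to 0.549 FPKM for 4 endothelial markers.

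The promoters were read first. Many lysosomal genes are known to share the CLEAR element, so a raised share in this list follows from the choice of genes and is description only. Promoter sequences of RefSeq (GRCh38.p14, from 250 bases before to 50 bases after a start site) were given for 27 of the 35 genes. The palindrome TCACGTGA, the core of the element, was in the promoters of 6 of these 27 genes (22.2%), namely CLN3, CTSA, GAA, GALNS, LAMP1 and MCOLN1, against 321 of 27305 genes overall (1.18%). The 7-letter form TCACGTG, searched on both strands and including every TCACGTGA, was in 8 of 27 (29.6%), with CTSD and NEU1 added, against 1226 genes (4.49%). The 6-letter E-box CACGTG, which lies within both, was in 9 of 27 (33.3%), with CD63 added, against 2396 genes (8.78%). A match describes letters in these windows and shows no binding. The sites below, at least 1 for each of the 8 genes with TCACGTG, are shown because the fold changes are later split by this element. Capitals mark the longest of the 3 forms at the site, and each line is 30 bases of the gene's own strand.

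CTSD, chr11:1763957-1763986, minus strand: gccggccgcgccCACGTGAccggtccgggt
CTSA, chr20:45891298-45891327, plus strand: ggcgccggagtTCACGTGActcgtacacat
GAA, chr17:80101493-80101522, plus strand: gggaggccgcgTCACGTGAcccaccgcggc
GAA, chr17:80101538-80101567, plus strand: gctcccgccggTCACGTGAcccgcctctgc
LAMP1, chr13:113297199-113297228, plus strand: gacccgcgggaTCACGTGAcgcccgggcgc
MCOLN1, chr19:7522571-7522600, plus strand: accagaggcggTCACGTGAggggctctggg
MCOLN1, chr19:7522598-7522627, plus strand: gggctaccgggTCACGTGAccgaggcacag
GALNS, chr16:88857104-88857133, minus strand: caggcaccgcgTCACGTGAcccgccgctgg
CLN3, chr16:28492058-28492087, minus strand: cgcgggtgctgTCACGTGAtccgacaaacg
NEU1, chr6:31862930-31862959, minus strand: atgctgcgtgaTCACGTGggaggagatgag

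GAA and MCOLN1 each carried 2 copies of TCACGTGA, and the LAMP1 window held 6 sites in all, 4 of them of the 7-letter form. The site of CTSD had its E-box starting 47 bases before the start site.

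The levels of the 35 genes are compared per length, in FPKM. The median gene of the group had a mean of 7.32 FPKM over the 6 libraries, against 3.58 FPKM for all 16753 genes tested. PSAP, whose product prosaposin is cut into the saposins that help hydrolases reach lipids, stood above all others with 207, 225 and 285 FPKM in sh-NC and 256, 210 and 229 FPKM in sh-IGF2BP3. It alone gave 37.2% to 44.2% of the summed FPKM of the 35 genes. The lysosomal coat protein LAMP1 came next with 48.9, 45.0 and 41.2 FPKM in sh-NC and 59.5, 51.2 and 49.9 FPKM in sh-IGF2BP3. The tetraspanin CD63 followed with 39.3, 44.2 and 39.4 FPKM in sh-NC and 46.5, 49.3 and 40.9 FPKM in sh-IGF2BP3. LAMP1 and CD63 overlapped in range, and no other gene reached the range of PSAP. NPC2, the soluble cholesterol carrier of the lysosome, had a mean of 29.6 FPKM, the thioesterase PPT1 26.2 FPKM, the glycogen-degrading enzyme GAA 25.3 FPKM and the protease CTSB 22.4 FPKM. At the other end were HEXA, a subunit of the hexosaminidase that degrades gangliosides, at 1.01 FPKM, TFEB at 0.554 FPKM and CLN3, a membrane protein that is defective in a childhood neurodegeneration, at 0.122 FPKM. HEXA and CLN3 lie for 98.8% and 83.8% of their spans inside another annotated gene on the same strand. So do IDS (99.7%), NAGLU (96.7%), CTSD (94.8%) and TPP1 (57.3%). How reads shared between genes were counted is not given in the sources used here, so the levels of these genes are uncertain. TFE3 had a mean of 8.11 FPKM, so that of the pair of regulators TFE3 was the more abundant transcript in each library. The 35 genes together made up 0.212% to 0.254% of all FPKM in a library.

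**Figure D1:**
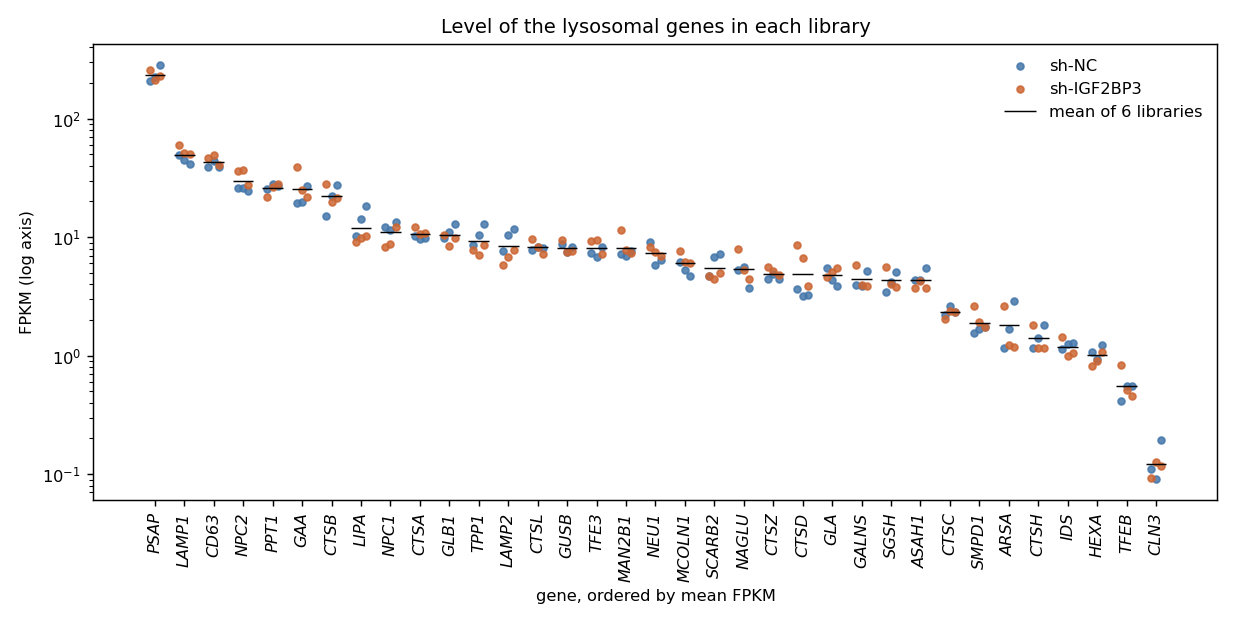
Level of each of the 35 genes in FPKM on a log axis, ordered by the mean of the 6 libraries (black line), with sh-NC libraries in blue and sh-IGF2BP3 libraries in orange. PSAP lies at 207 FPKM or more in every library, most genes lie between 1 and 50 FPKM, and TFEB and CLN3 lie below 1 FPKM.

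The order below the top depended on the gene length behind FPKM, which was derived from the deposited counts and FPKM. The annotation and the exons behind this length are not given in the sources used here. This length was 12.9 times that of the principal transcript in GENCODE release 29 for CTSC, 13.0 times for CTSZ and 0.841 times for PPT1. Per kilobase of the principal transcript, CTSZ moved from rank 22 to rank 5 and CTSC from rank 28 to rank 9, and PPT1 fell from rank 5 to rank 15. PSAP, LAMP1, CD63 and NPC2 kept ranks 1 to 4 and CLN3 stayed last at 35.

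The comparison of sh-IGF2BP3 with sh-NC asked whether transcripts of the lysosome differed once IGF2BP3 was reduced. All 35 genes passed the filter on low counts and entered the fit over 16753 genes. None reached the study's thresholds (fold change above 1.5 and adjusted p under 0.05) in edgeR's quasi-likelihood test, in which 0% of all genes tested were called higher and 0% lower. At an unadjusted p under 0.05, CTSD and NPC2 were higher and LAMP2 and LIPA were lower in sh-IGF2BP3. That is 2 of 35 in each direction (5.71%), below the background of 13.6% of all genes tested that were higher and 8.54% that were lower at this level. The median log2 fold change of the 35 genes was 0.14, against −0.01 over all genes tested, with 22 genes above 0 and a range from −0.46 to 0.98. In 7 genes, CTSA, CTSD, CTSZ, LAMP1, NPC2, MAN2B1 and SMPD1, every sh-IGF2BP3 library was above every sh-NC library (20.0%, against 13.2% of all genes tested). For TPP1 and LIPA, each library of sh-IGF2BP3 had less than each of sh-NC (5.71%, against 11.0% of all genes tested). Among genes with a mean of at least 10 CPM, 19.4% of the group were separated upward and 6.45% downward, against 16.9% and 12.4% of all tested. At an unadjusted p under 0.05 in edgeR, 6.45% of the group at that level were higher and 6.45% lower, against 18.8% and 9.93%.

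Changes of the 35 genes were small. CTSD alone exceeded a fold change of 1.5 (2.86% of the group, against 22.4% of all genes tested and 16.2% of the 9797 tested genes with a mean of at least 10 CPM). The median absolute log2 fold change was 0.23, against 0.33 for all genes tested and 0.30 for those with at least 10 CPM. For 10 genes the 95% interval of the fold change lay within 1.5-fold in either direction, namely CTSC, CTSH, CTSL, GLB1, GUSB, GALNS, IDS, ASAH1, PSAP and PPT1. That share was 28.6%, against 14.4% of all genes tested and 24.3% of those with at least 10 CPM. The intervals of the other 25 genes reached past 1.5-fold in at least 1 direction.

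**Figure D2:**
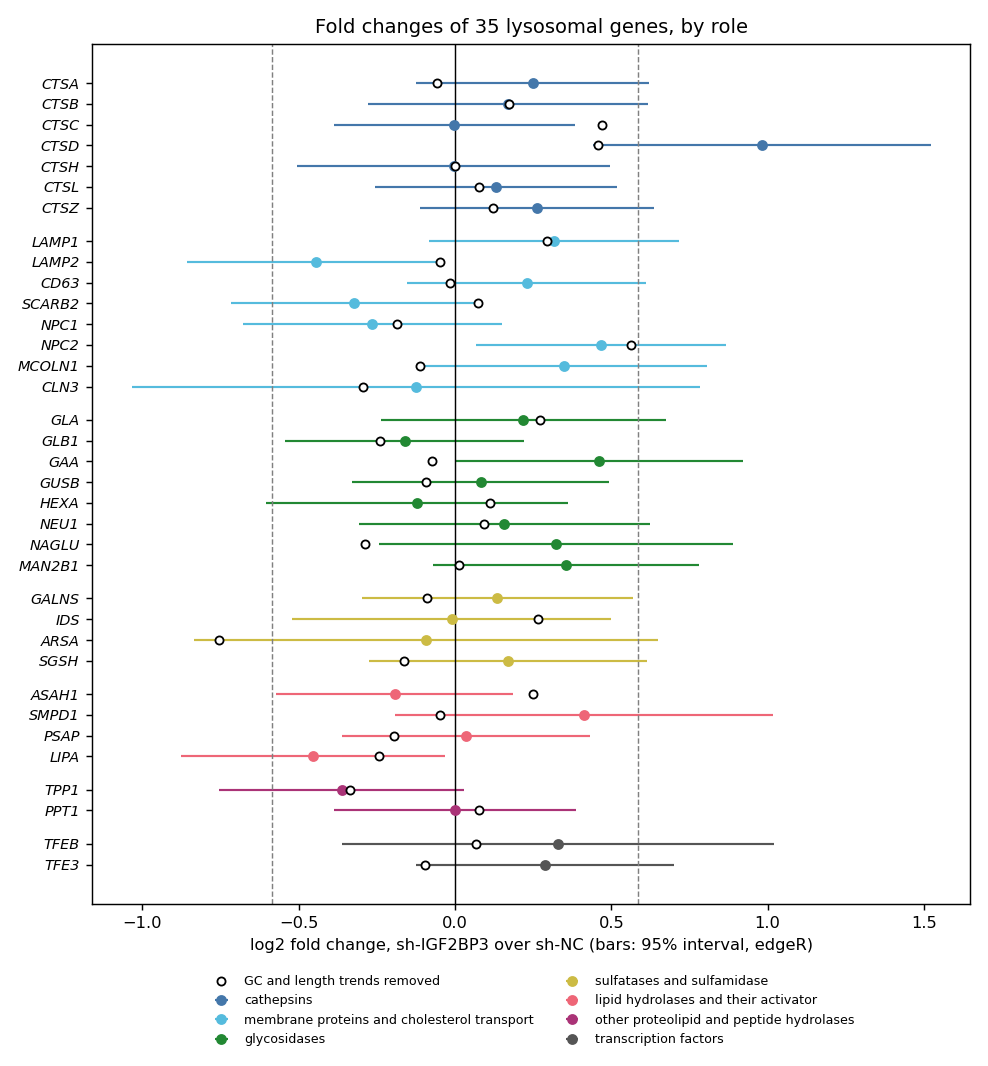
Log2 fold change of sh-IGF2BP3 over sh-NC for the 35 genes, grouped by role, with the 95% interval of edgeR's fit (bars), the value after trends with GC content and gene length were removed (open circles) and the 1.5-fold threshold (dashed lines). CTSD lies farthest right at 0.98, the intervals of CTSD and NPC2 lie above 0 and those of LAMP2 and LIPA below 0, and the open circle of CTSD lies at 0.46.

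The cathepsins are the lysosomal proteases. Their median log2 fold change was 0.17, 5 of 7 were above 0, and CTSD had the largest fold change of all 35 genes. CTSD (ENSG00000117984, GRCh38 chr11:1752752-1764573) encodes cathepsin D, the aspartic protease of the lysosome. It was at 21.9, 17.6 and 17.1 CPM in sh-NC and at 48.7, 39.8 and 23.0 CPM in sh-IGF2BP3. All sh-IGF2BP3 libraries were above all sh-NC libraries, but library 3 of sh-IGF2BP3 stood only just above library 1 of sh-NC. The log2 fold change was 0.98 ± 0.25 (SE), with an unadjusted p of 0.00142 and an adjusted p of 0.103 in edgeR. In DESeq2 the log2 fold change was 0.99 with an adjusted p of 0.0210, and CTSD was the 1 gene of the group called, where 4.29% of the 13087 genes with an adjusted p were called higher and 1.05% lower. Leaving out 1 library in edgeR gave an adjusted p of 0.290 to 0.426 for CTSD in 4 of 6 fits, with a log2 fold change of 0.74 (adjusted p = 0.302) without library 1 of sh-IGF2BP3. It was called higher without library 1 of sh-NC (1.11, adjusted p = 0.00979), a fit in which 10% of all genes tested were called higher and 5.67% lower. It was also called without library 3 of sh-IGF2BP3 (1.22, adjusted p = 0.0350), where 1.23% of all genes tested were called higher and 0.0805% lower. An unnamed readthrough gene on the same strand, ENSG00000250644, covers 94.8% of CTSD and held 4 to 10 counts per library. Whether reads shared by both genes were dropped is not known, so this low count cannot show that the counts of CTSD are complete.

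The other cathepsins differed less. CTSA, the carboxypeptidase that also protects NEU1 and GLB1 in a complex, had a log2 fold change of 0.25, and CTSZ, a carboxypeptidase, of 0.26, both with groups that did not overlap and adjusted p of 0.413 and 0.392 in edgeR. The cysteine endopeptidases CTSB and CTSL were at 0.17 and 0.13, and CTSB was at 0.01 without library 1 of sh-NC. CTSC, a dipeptidyl peptidase that activates serine proteases of granules, and CTSH, an aminopeptidase, were at 0.00, each with an interval inside 1.5-fold.

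Among genes of the membrane and of cholesterol transport, the median was 0.05 with 4 of 8 above 0, and the coat proteins LAMP1 and LAMP2 lay on opposite sides of 0. LAMP1 was at 293, 251 and 217 CPM in sh-NC and at 341, 310 and 296 CPM in sh-IGF2BP3, a log2 fold change of 0.32 ± 0.19 (SE) with an adjusted p of 0.331 in edgeR. LAMP2 (ENSG00000005893, chrX:120426148-120469365), which also serves chaperone-mediated autophagy, was at 85.4, 107.8 and 113.6 CPM in sh-NC and at 61.9, 77.0 and 86.3 CPM in sh-IGF2BP3. Only the lowest sh-NC library fell within the range of sh-IGF2BP3. Its log2 fold change was −0.45 ± 0.19 (SE), with an unadjusted p of 0.0356 and an adjusted p of 0.196 in edgeR.

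The cholesterol exporters also lay apart. NPC2 (ENSG00000119655, chr14:74476192-74494177), which takes up free cholesterol inside the lysosome and hands it to NPC1, was at 70.3, 65.3 and 58.4 CPM in sh-NC and at 93.5, 101.6 and 73.1 CPM in sh-IGF2BP3. The groups did not overlap, and the log2 fold change was 0.47 ± 0.19 (SE), with an unadjusted p of 0.0247 and an adjusted p of 0.169 in edgeR. NPC1, the exporter in the membrane, had a log2 fold change of −0.26 with an adjusted p of 0.437 in edgeR and overlapping groups. CD63 was at 99.4, 104.3 and 87.2 CPM in sh-NC and at 112.4, 126.2 and 102.5 CPM in sh-IGF2BP3, a log2 fold change of 0.23. The calcium channel MCOLN1 was at 0.35, and SCARB2, the receptor that carries glucocerebrosidase to the lysosome, at −0.32, neither with a p under 0.05. CLN3 had 132 counts over the 6 libraries, and its interval from −1.03 to 0.78 left its direction unresolved.

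**Figure D3:**
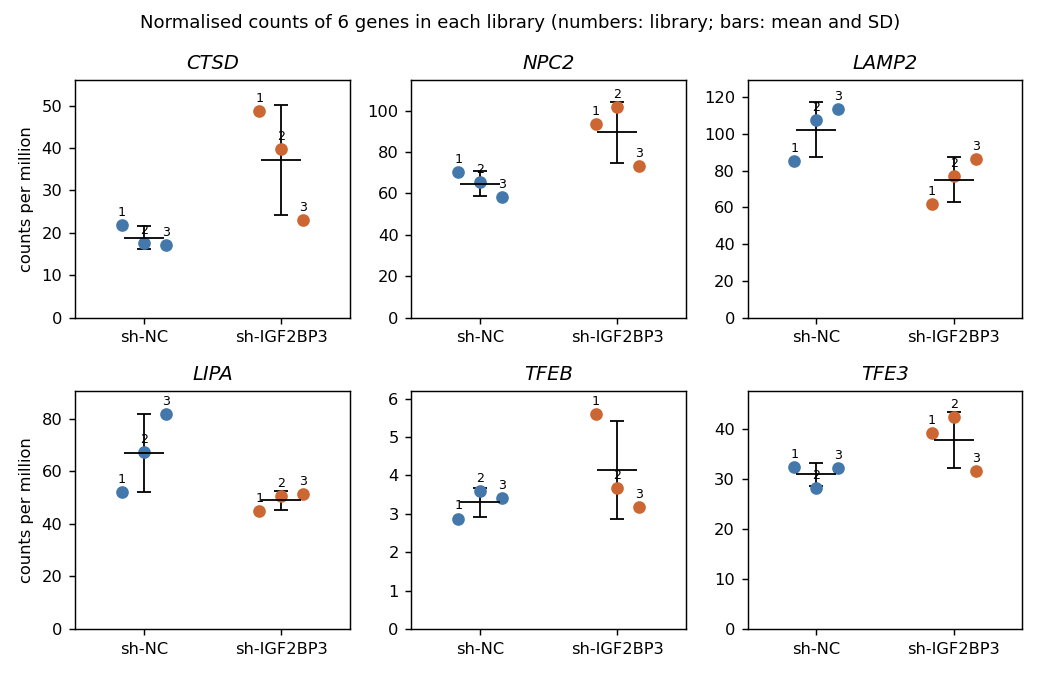
Counts in CPM of CTSD, NPC2, LAMP2, LIPA, TFEB and TFE3 in each library, with library numbers beside the points and the mean and SD of 3 libraries in black. The sh-IGF2BP3 libraries lie above all sh-NC libraries for CTSD and NPC2 and below them for LIPA, and the groups overlap for LAMP2, TFEB and TFE3.

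The glycosidases, which trim sugars from glycans and glycolipids, had a median log2 fold change of 0.19 with 6 of 8 above 0 and none at a p under 0.05. GAA had the largest value of these, 0.46, with a p of 0.0502 and an adjusted p of 0.226 in edgeR. Library 1 of sh-IGF2BP3 held 205.0 CPM of GAA against 138.6 and 117.8 CPM in the other two and 100.1 to 129.5 CPM in sh-NC, and without that library the log2 fold change was 0.20. The alpha-mannosidase MAN2B1 was at 0.36 with groups that did not overlap, and NAGLU, which acts on heparan sulfate, at 0.32 with groups that did. Without library 1 of sh-IGF2BP3 MAN2B1 was at 0.16 and NAGLU at 0.08, and with trends of GC content and gene length removed, as described further on, they were at 0.01 and −0.29 with overlapping groups. The remaining glycosidases GLA, NEU1, GUSB, HEXA and GLB1 lay between −0.16 and 0.22. GUSB shares sequence with annotated pseudogenes, of which GUSBP11 held 1507 counts against 3546 for GUSB, so its count is uncertain. The sulfatases GALNS, IDS and ARSA and the sulfamidase SGSH had a median of 0.06 and lay between −0.09 and 0.17.

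Of the genes of lipid hydrolysis, LIPA and SMPD1 lay on opposite sides of 0. LIPA (ENSG00000107798, chr10:89213569-89414557), the acid lipase that frees cholesterol and fatty acids from lipoprotein esters, was at 52.0, 67.3 and 81.8 CPM in sh-NC and at 44.8, 50.7 and 51.2 CPM in sh-IGF2BP3. The groups did not overlap, with the lowest sh-NC library just above the highest sh-IGF2BP3 library. The log2 fold change was −0.46 ± 0.20 (SE), with an unadjusted p of 0.0360 and an adjusted p of 0.197 in edgeR. Leaving out 1 library gave −0.31 without library 3 of sh-NC (adjusted p = 0.577 in edgeR) and −0.39 without library 1 of sh-IGF2BP3 (adjusted p = 0.373). LIPA was called lower, at −0.60 (adjusted p = 0.0397), without library 1 of sh-NC, the fit in which 5.67% of all genes tested were called lower. The annotated span of LIPA contains IFIT1, IFIT2 and IFIT3 on the opposite strand, with 1030, 672 and 397 counts against 6612 for LIPA. Whether the counting used strand is not given in the sources used here. This limit also holds for other genes of the group. Among them, RMC1 (4363 counts) covers 31.9% of NPC1 (12067) and RPL36A (1092) covers 19.6% of GLA (3318). SLC26A11 (1996) covers 8.6% of SGSH (3227), and TRAPPC2L (4738) covers 1.7% of GALNS (4132). SMPD1, the acid sphingomyelinase, had 4.40, 4.46 and 4.39 CPM in sh-NC and 7.15, 5.56 and 4.94 CPM in sh-IGF2BP3, a log2 fold change of 0.41 with an adjusted p of 0.403 in edgeR, which was 0.25 (adjusted p = 0.668) without library 1 of sh-IGF2BP3. The acid ceramidase ASAH1 was at −0.19. PSAP was at 674, 683 and 814 CPM in sh-NC and at 797, 692 and 736 CPM in sh-IGF2BP3, and its log2 fold change of 0.04 had an interval from −0.36 to 0.43.

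TPP1 and PPT1 are hydrolases whose loss causes storage of lipofuscin-like pigment in neurons. TPP1, a tripeptidyl peptidase, was at 58.1, 66.1 and 76.3 CPM in sh-NC and at 50.5, 48.1 and 57.2 CPM in sh-IGF2BP3. All sh-IGF2BP3 libraries were below all sh-NC libraries, and the log2 fold change was −0.36 with an adjusted p of 0.260 in edgeR. PPT1 was at 0.00, with an interval from −0.39 to 0.39.

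Neither regulator passed the test. TFEB was at 2.88, 3.59 and 3.42 CPM in sh-NC and at 5.60, 3.66 and 3.18 CPM in sh-IGF2BP3. Library 1 of sh-IGF2BP3 was high and the other two lay within or next to the sh-NC range, with a log2 fold change of 0.33 ± 0.33 (SE) and an adjusted p of 0.569 in edgeR. Without that library the log2 fold change was 0.05, with an adjusted p of 0.946. TFE3 was at 32.3, 28.1 and 32.0 CPM in sh-NC and at 39.1, 42.4 and 31.6 CPM in sh-IGF2BP3. Its groups overlapped through library 3 of sh-IGF2BP3, and the log2 fold change was 0.29 ± 0.19 (SE) with an adjusted p of 0.391 in edgeR. Activity of these factors is set largely by where the protein is in the cell, which RNA levels do not measure.

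Split by the promoter element, the 8 genes with TCACGTG had a median log2 fold change of 0.28, with 7 of 8 above 0, and the 19 genes without it a median of 0.08, with 11 of 19 above 0. This difference was not tested. The genes with the element were also richer in G and C, with a median GC content of 59.3% against 51.6%, and once the trends with GC content and length were removed the medians were −0.07 and 0.01.

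The libraries of a group were not alike for these genes. Library 1 of sh-IGF2BP3 was the highest of the 6 for 17 of the 35 genes (48.6%, against 24.1% of all genes tested), among them CTSD, GAA, NAGLU, MAN2B1, SMPD1, TFEB and SGSH. It was also the lowest of the 6 for 7 genes, among them LAMP2, NPC1, LIPA and PPT1. Library 3 of sh-IGF2BP3 was the highest for only 1 gene. The median deviation of the 35 genes from their own means was −0.04, −0.03 and −0.08 on the log2 CPM scale in sh-NC, and 0.20, 0.06 and −0.04 in sh-IGF2BP3, so that library 3 of sh-IGF2BP3 lay within the sh-NC range. The median log2 fold change of the 35 genes was 0.05 without library 1 of sh-IGF2BP3 and 0.19 without library 3. Leaving out 1 library moved the log2 fold change by over 1.5 times, up or down, for 26 genes, and changed its sign for 8 of these, all at 0.14 or less in size. It moved less than that in every such fit for 9 genes, namely CTSA, CTSD, LAMP2, SCARB2, NPC2, ASAH1, LIPA, TPP1 and TFE3.

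**Figure D4:**
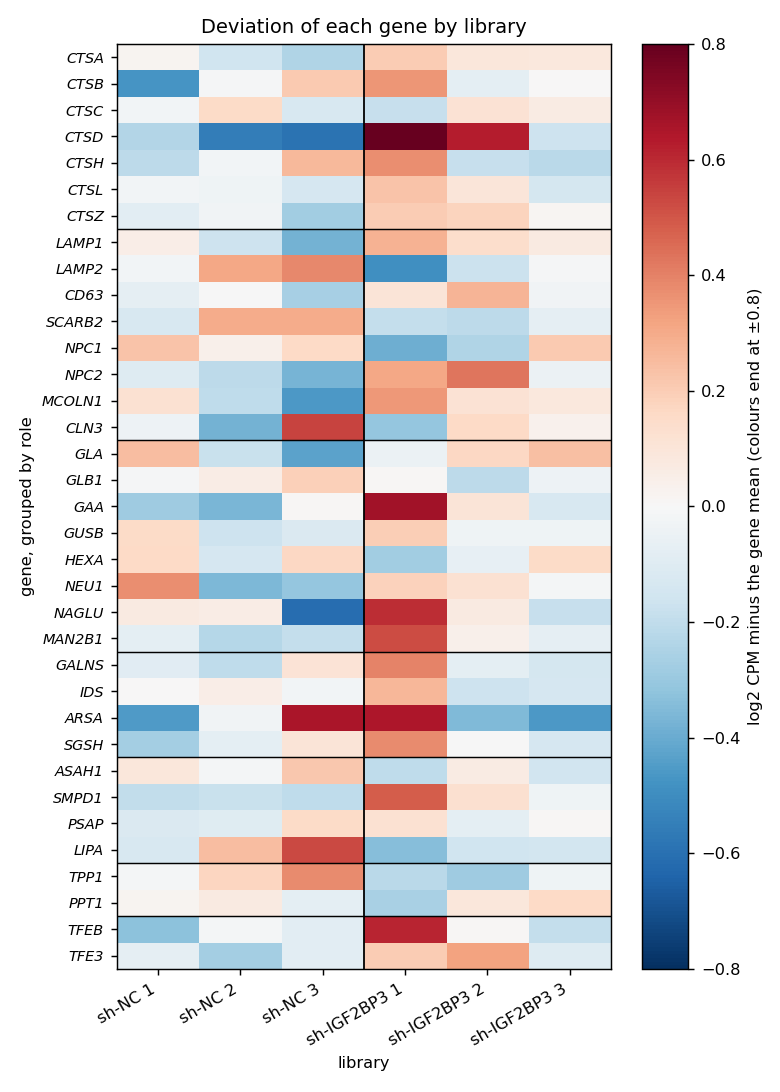
Deviation of log2 CPM from the mean of the 6 libraries for each of the 35 genes (rows, grouped by role) in each library (columns, sh-NC left of the line). The first sh-IGF2BP3 library holds the deepest reds, CTSD, GAA, TFEB and NAGLU among them, and the third sh-IGF2BP3 library stays near 0 or on the side of sh-NC for many genes.

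GC content of the transcripts moved with the fold changes, in these genes as in all genes tested. The median GC content of the 35 genes was 53.3%, against 48.7% for all genes tested, and 14 of 35 were in the richest of 4 bins that split all genes tested evenly by GC content. In that bin the median log2 fold change was 0.31 for the 14 genes and 0.45 for all genes, and in the poorest bin it was −0.26 for 4 genes of the group (among them LAMP2 and CTSC) and −0.31 for all genes. Spearman's rho between log2 fold change and GC content was 0.62 across the 35 genes and 0.61 across all genes tested. After the removal of these trends described next it was −0.43 across the 35 genes, so that the corrected values of these genes ran the other way with GC content. These are correlations across genes within the same 6 libraries, and genes are not independent replicates.

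With the trends of GC content and length removed from every library, the median log2 fold change of the 35 genes was −0.01, against 0.01 for all genes, and 16 genes were above 0. At an unadjusted p under 0.05, CTSC, CTSD and NPC2 were then higher (3 of 35, against 6.86% of all genes tested) and ARSA and TPP1 lower (2 of 35, against 3.59%). The log2 fold change of CTSD was 0.46 ± 0.17 (SE), less than its uncorrected value by over 1.5 times, and its groups still did not overlap. NPC2 was at 0.56 ± 0.17 (SE), also without overlap, and TPP1 at −0.34 ± 0.15 (SE), likewise. LAMP2 was at −0.05, LIPA at −0.24 and GAA at −0.07, none with a p under 0.05. CTSC, a transcript of 38.2% GC, went from 0.00 to 0.47 ± 0.17 (SE), and ARSA, with 66.0% GC the richest of the 35, from −0.09 to −0.76 ± 0.31 (SE). The adjusted p in edgeR was 0.415 for NPC2, 0.441 for CTSD, 0.421 for CTSC, 0.460 for ARSA and 0.471 for TPP1. After the correction CTSC, CTSD and NPC2 were higher in every sh-IGF2BP3 library than in any of sh-NC (3 of 35, against 8.43% of all genes tested), and GLB1 and TPP1 lower (2 of 35, against 6.70%). The separation seen before it in CTSA, CTSZ, LAMP1, MAN2B1, SMPD1 and LIPA was lost, and CTSD, NPC2 and TPP1 had it with and without the correction. Whether the GC trend arose in the cells or in the libraries was not tested.

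**Figure D5:**
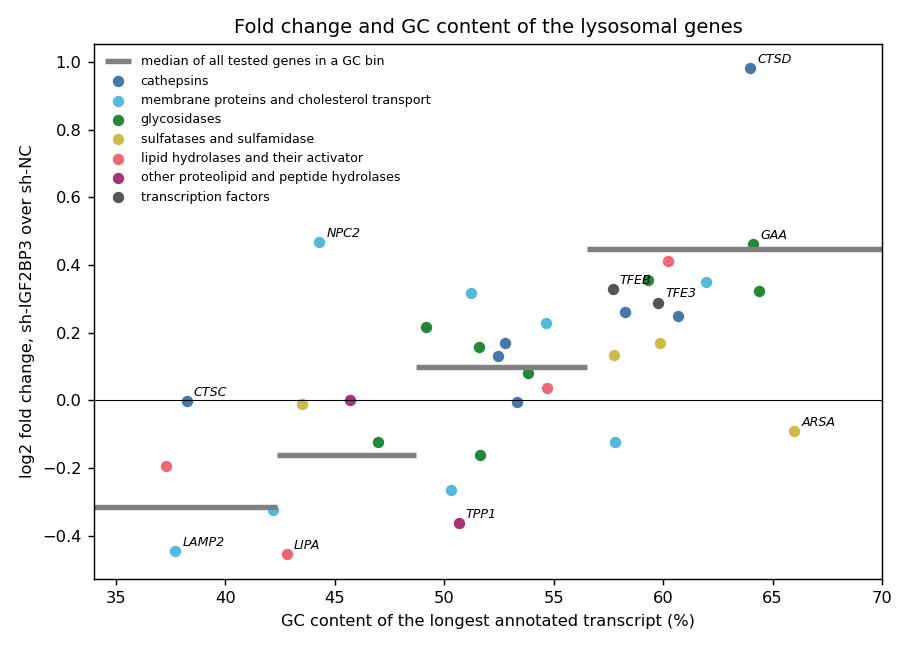
Log2 fold change of the 35 genes against the GC content of their longest annotated transcript, with the median of all tested genes in each of the 4 GC bins as grey bars (the outer bars run past the axis). The genes follow the bars from LAMP2 at −0.45 upward to the right, with CTSD and NPC2 above the bar of their bin and ARSA below its own.

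Other genes of the pathway were read from lists of their own, and none of these genes was called at the study's thresholds. Their counts at an unadjusted p under 0.05 are to be read against the 13.6% of all genes tested that were higher and the 8.54% that were lower, or 6.86% and 3.59% with the GC and length trends removed. Among 26 further lysosomal hydrolases and activators, 3 were higher and 2 lower at that p, with a median of −0.09, and 1 was higher and 2 lower with the trends removed. The 3 with the smallest p were the collagen-degrading protease CTSK (−1.15), the dipeptidyl peptidase DPP7 (0.56) and the hyaluronidase HYAL2 (0.48). Among 21 further membrane proteins and transporters, 2 were higher and 5 lower, or 0 and 1 with the trends removed, with a median of −0.11, led by the amino acid sensor SLC38A9 (−0.75), the chloride exchanger CLCN7 (0.57) and the sialic acid exporter SLC17A5 (−0.57). With the GC and length trends removed these 6 genes were at −0.93, −0.09, 0.00, −0.34, 0.10 and −0.46, in the order named. Of 15 genes that sort or mature lysosomal enzymes, 2 were higher, CLN6 (0.53) and NAGPA (0.60), which uncovers the mannose-6-phosphate sorting signal, and none was lower. With the trends removed CLN6 was at 0.41 and NAGPA at 0.38, and 1 gene, CLN6, was higher at that p.

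The genes that act on TFEB and TFE3 lay on both sides of 0. Of 16 such genes tested (other members of the TFE family, Rag GTPases, Ragulator, folliculin and mTORC1), 5 were higher and 3 lower at an unadjusted p under 0.05, with a median of 0.03, and 3 were higher and 1 lower with the GC and length trends removed. The Ragulator subunits LAMTOR4 and LAMTOR5, part of the platform that brings mTORC1 to the lysosome, had log2 fold changes of 1.01 and 0.82, and FNIP1, the partner of folliculin, −0.78, with adjusted p of 0.103, 0.108 and 0.103 in edgeR. LAMTOR4 was at 15.9, 17.0 and 14.1 CPM in sh-NC and at 32.2, 39.2 and 23.5 CPM in sh-IGF2BP3, so its groups did not overlap. FNIP1 was at 41.4, 45.6 and 54.9 CPM in sh-NC and at 23.0, 25.2 and 34.4 CPM in sh-IGF2BP3, again without overlap. With the GC and length trends removed LAMTOR4 was at 0.56, LAMTOR5 at 0.83 and FNIP1 at −0.44. Of 17 subunits of the V-ATPase, the proton pump that acidifies the lysosome, 3 were higher and none lower, with a median of 0.08, and 2 were higher with the trends removed. The 3 were ATP6V0C, ATP6V1F and ATP6V0B. ATP6V0C was at 2.48, 0.248 and 0.204 CPM in sh-NC and at 41.3, 37.1 and 0.909 CPM in sh-IGF2BP3, so its groups overlapped despite a fitted log2 fold change of 4.82. ATP6V1F was at 1.14 and ATP6V0B at 0.66 (adjusted p = 0.103 and 0.126 in edgeR), both without overlap. With the trends removed ATP6V1F was at 0.92, still without overlap, and ATP6V0B at 0.38 with overlap. Of the 17 subunits 15 were then above 0, with a median of 0.16, against 8616 of 16753 genes tested and a median of 0.01. The libraries of a group differed here too. The median deviation of the subunits was 0.11, −0.12 and −0.31 in sh-NC libraries 1 to 3, and −0.03, 0.17 and 0.08 in sh-IGF2BP3 libraries 1 to 3. Library 1 of sh-NC thus lay above libraries 1 and 3 of sh-IGF2BP3, and the subunits are not independent replicates.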

How the data were processed

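Total RNA of HCT116 cells was made into TruSeq RNA libraries, 3 per group, and grouped by the labels. The authors deposited raw counts per Ensembl gene and FPKM values for the same 62710 genes. Their processing notes name CASAVA and the build GRCh38, while the aligner, the counting tool and its use of strand are not given in the sources used here. Each deposited FPKM was checked to equal its count over the library total, scaled by 1 length per gene.

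Counts were analysed with edgeR 4.0.16 in R 4.3.3 (filterByExpr, TMM, two-sided quasi-likelihood test, Benjamini-Hochberg adjustment over 16753 genes), without a further term, at the study's thresholds of a fold change of 1.5 and an adjusted p of 0.05. CPM values are TMM-normalised, and log2 CPM used a prior count of 2. GC content came from the longest GENCODE release 29 transcript and was known for 96.9% of tested genes. GC and length trends were fitted per library with splines of 5 degrees of freedom and entered as offsets. Depth was 16146718 to 23576469 counts per library, and SE and intervals cover the spread between libraries. Libraries of a group differed beyond counting noise. Alternatives were DESeq2 1.42.0, RLE scaling, 2 other filters on low counts, a replicate block, limma 3.58.1 on log2(FPKM + 1) and log2(FPKM + 0.1), and leaving out each library in turn. The scripts were tested on simulated data.

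The 35 genes, their role groups and the other lists were chosen with earlier results of these data known. Values in every library were to be given for genes of the group with an unadjusted p under 0.05, for TFEB, TFE3 and the 3 with the highest mean FPKM, and the other lists were to be described by counts, the median and at most the 3 genes with the smallest p. TPP1, GAA and SMPD1 of the group are given in more detail after their values were seen, as are the 10 genes with narrow intervals. Amino acid sequences were not used here.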

Additional observations from a re-analysis of the deposited data

How the results depend on the processing

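No gene of the group was called in 16753-gene fits with TMM or RLE scaling, and 1, CTSD, was called higher with DESeq2 and without a filter on low counts, where 1.89% of 36335 genes were. Removing the GC and length trends turned the median log2 fold change from 0.14 to −0.01 (−0.0148, and −0.0133 with the replicate block as well) and CTSC to 0.47 (0.484 with the block). With both GC correction and block, 0 genes were lower at an unadjusted p under 0.05, against 1.94% of all genes tested. In that fit 3 genes were higher, against 5.12% of all genes tested. Limma on FPKM gave medians of 0.0437 with a pseudocount of 1, with or without a filter, and 0.0475 with 0.1. Correlations of same-numbered deviations were −0.28, −0.19 and −0.04, and those of the other pairs ran from −0.26 to 0.32. These values cannot show how the libraries were prepared, and the labels do not say whether equal numbers mark pairs. The study's text speaks of 3 pairs of control and knockdown cells, without saying which libraries form a pair. The replicate block alone gave 0 calls in either direction, as it did over all genes tested, and a median of 0.125. At an unadjusted p under 0.05 it gave 2 genes higher and 2 lower, against 12.6% and 6.92% of all genes tested.

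Each library was left out in turn, and again with the GC and length trends removed, the latter chosen after the data were seen. Called genes ranged from 0 to 1 in either direction, genes at an unadjusted p under 0.05 from 1 to 7 higher and from 0 to 4 lower (shares of all genes tested 2.24% to 17.7% and 1.45% to 14.2%), and the median from −0.0136 to 0.191. Both extremes at that p came without library 1 of sh-NC (7 higher with trends removed, against 15.7% of all genes, and 4 lower with trends kept, against 14.2%). With trends kept, 0 genes were lower at that p without sh-NC 2, sh-NC 3, sh-IGF2BP3 1 or sh-IGF2BP3 2. Of all genes tested, 4.09%, 3.81%, 6.77% and 3.81% were lower in these fits, in the order named. Without sh-NC 1 and with trends removed, NPC2 (0.69, adjusted p = 0.0366 in edgeR) and ARSA (−1.02, adjusted p = 0.0389) were called, where 4.19% of all genes tested were called higher and 1.04% lower. Ranges were −0.0853 to 0.597 for CTSC, −0.272 to 0.386 for ASAH1, −0.462 to 0.466 for NAGLU and −0.567 to 0.0150 for LAMP2. Over all 22 alternatives with fold changes the sign was the same for 11 genes, CTSB, CTSD, CTSL, CTSZ, LAMP1, NPC1, NPC2, GLA, GLB1, TPP1 and LIPA, and changed at least once for 24. The cause of these changes was not tested. With 3 libraries a group, small changes of genes with few counts such as CLN3 and TFEB could not be resolved.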
